A study of Mus musculus with 7 samples.

Results

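The mouse genes named Ccdc, for coiled-coil domain containing, were compared between testes of Phf13 knockout and wild type mice, with RNA from the whole organ. Members were the genes whose symbol begins with Ccdc, apart from 1 symbol that the rule sets aside and that is not analysed here, read from probe sets that carry a single gene symbol, and each gene was represented by its probe set of highest mean signal. This gave 119 members among 18194 tested genes, and 1 of them, Ccdc42os, is an opposite-strand transcript by its name. The series holds 3 arrays from Phf13 knockout testis and 4 arrays from wild type testis, all from mice 15 to 20 weeks old. The knockout allele, the strain and the number of animals behind each array are not given in the sources used here, and p-values thus reflect how far these arrays scatter, which may be technical in part. Phf13, which encodes a PHD finger protein that binds a methylated histone mark, had log2 signals of 6.04, 5.83 and 5.71 in knockout and 8.66, 8.64, 8.73 and 8.54 in wild type testis (log2 fold change −2.78, SE 0.09, limma adjusted p = 8.76e-06). The deposited values are log2 signals whose array medians over all probe sets lay between 5.01 and 5.08. Arrays carry no read depth, and their number limits the precision.

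A coiled coil is a rod made of helices wound around each other, and the shared name says nothing more about function. Many Ccdc proteins are structural parts of the axoneme, the microtubule core of the sperm tail and of motile cilia: they set the spacing of its repeat, anchor the outer dynein arms or line its microtubules. Others build centrioles, serve splicing and ribosomes, sort endosomal cargo, or are secreted. In testis, genes of the axoneme are switched on during meiosis and in spermatids, so that bulk signal for them depends on germ cells. In such bulk samples, fewer cells of a type and less RNA per cell cannot be told apart.

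Ccdc genes were more often lower than higher in knockout testis. In limma's moderated test with Benjamini-Hochberg adjustment over all 18194 genes and a threshold of 0.05, 32 of the 119 members fell, 2 rose and 85 did not pass. The share of members that fell was 26.9%, beside 7.05% of all tested genes, and the share that rose was 1.68%, beside 9.07% of all tested genes. The changes were small. Log2 fold changes (knockout minus wild type) of the members that fell ran from −0.60 to −0.24, and as percent changes from −34.2% to −15.2%. The median log2 fold change over all members was −0.17, beside −0.045 over all tested genes, and 88 members had a negative value, 73.9% of them beside 59.9% of all genes. Every knockout array lay below every wild type array for 44 members, 37.0% beside 15.2% of all genes, and above for 6 members, 5.04% beside 12.8%. The 32 members that fell are all among these 44.

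The counts rested on which arrays entered, more than the direction did. Of the members, 32 fell without knockout 2, 24 without wild type 3, 19 without wild type 4 and 9 without wild type 2. Only 5 fell without knockout 1, 4 without wild type 1 and 1 without knockout 3. The median log2 fold change over all members stayed between −0.17 and −0.15 with any 1 array left out. Without both knockout 3 and wild type 4, limma called 0 members and 4 of all 18194 genes. In that fit 44 members and 4556 of all genes had an unadjusted p under 0.05, beside 61 members and 6146 genes with all arrays. Of all genes 0.434% fell without knockout 3, 1.42% without knockout 1 and 6.65% without knockout 2. The share was 1.14% without wild type 1, 2.23% without wild type 2, 5.77% without wild type 3 and 4.47% without wild type 4. The first 4 digits of the array titles form 3 groups of unstated meaning: the first holds knockout 1 and wild type 1, the next holds knockout 2 beside wild type 2 and 3, and the last has knockout 3 and wild type 4. Within them the members' median difference was −0.23, −0.12 and −0.18. That each of the 32 members that fell was lower in knockout within each group follows from their lack of overlap between genotypes. Of the 32, 0 passed in all 7 fits that leave out 1 array. Deviations from the genotype means correlated at 0.103 to 0.319 between knockout and wild type arrays of the same group, and at −0.166 to 0.0227 between arrays of different groups. With these groups as a block, 18 members fell, 17 of them among the 32, and 3 rose, beside 5.03% and 7.71% of all genes.

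Cell type markers moved with genotype, and their part in these results was not tested. Among all tested genes, 9.07% rose and 7.05% fell. Of 14 measured Sertoli cell markers, 12 rose, 0 fell and 2 did not pass (median 0.67), and their summed linear signal was 16961 to 18745 in knockout and 10032 to 12735 in wild type arrays. Leydig (5 of 8), peritubular (4 of 8), fibroblast (6 of 8) and macrophage markers (6 of 9) also rose in part and none of them fell, with summed signals of 7009 to 8898, 2418 to 2716, 1652 to 1884 and 1292 to 2066 in knockout, against 4176 to 5839, 1475 to 1809, 729 to 1079 and 905 to 1182 in wild type arrays. Among germ cell lists, 3 of 8 round spermatid markers fell, 0 rose and 5 did not pass (median −0.20), with sums of 13684 to 13860 in knockout and 15245 to 16642 in wild type arrays. For pachytene spermatocytes, 4 of 9 fell, 0 rose and 5 did not pass (median −0.18), and the sums overlapped at 18292 to 20537 in knockout and 19922 to 20505 in wild type arrays. For elongating spermatids, 3 of 10 fell, 0 rose and 7 did not pass (median −0.08), with sums of 69633 to 70746 in knockout and 71710 to 75904 in wild type arrays. Of 9 spermatogonial markers 2 rose, 0 fell and 7 did not pass. Endothelial markers (1 of 8 fell, 0 rose) and those of epididymis and efferent duct, which has ciliated cells of its own (1 of 7 rose, 0 fell), were dim, with 8 of 8 and 5 of 7 below the median gene.

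The shift differed between signal levels. Tested genes were divided by their mean log2 signal over the 7 arrays into 4 bands of equal size, with limits at 4.63, 6.33 and 8.09, and bands 1 to 4 held 15, 21, 38 and 45 members. In band 4, the brightest, 21 of 45 members fell and 0 rose, which is 46.7% beside 14.2% of all genes of that band that fell and 10.1% that rose. In band 3, 9 of 38 members fell and 2 rose, 23.7% and 5.26% beside 9.50% and 17.0% of all genes there. Bands 1 and 2 held 36 members, of which 2 fell and 0 rose. In band 2 this was 2 of 21 members, 9.52% beside 3.45% of all genes that fell and 7.78% that rose, and in band 1 it was 0 of 15 beside 1.05% and 1.43%.

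**Figure D1:**
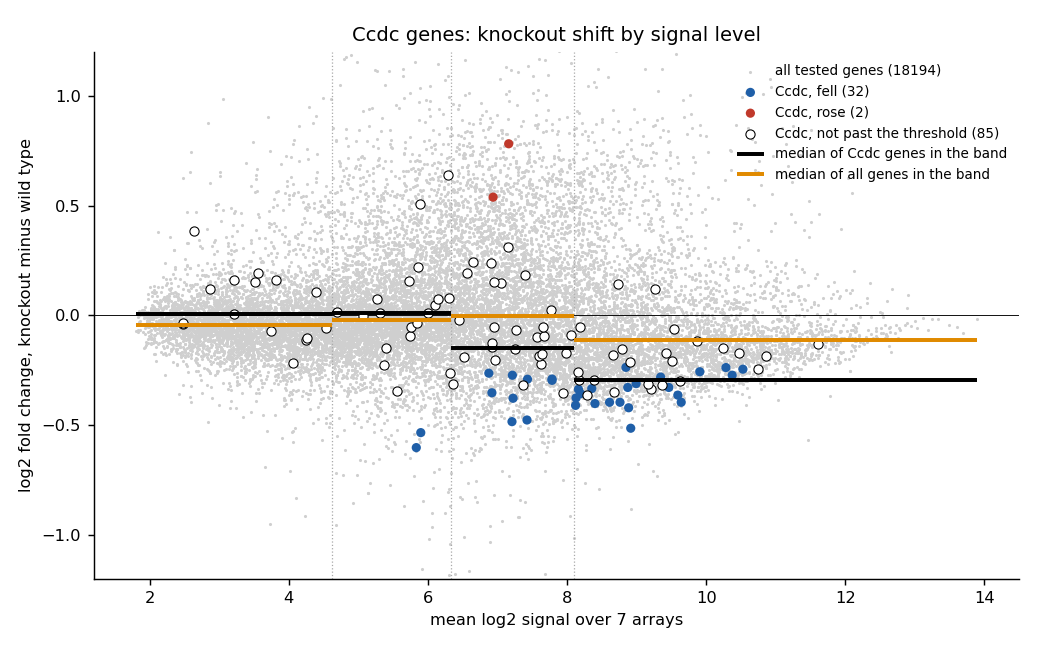
Log2 fold change (knockout minus wild type) of each gene against its mean log2 signal over 7 arrays, with the 119 Ccdc genes as large points, all 18194 tested genes as small grey points and dotted lines at the limits of the 4 signal bands. The vertical axis stops at ±1.2, which leaves out 25 genes, none of them Ccdc. The black line (median of Ccdc genes in a band) lies near 0 in bands 1 and 2 and at −0.29 in band 4, below the orange line for all genes at −0.11.

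The median log2 fold change of the members was 0.005 in band 1, 0.01 in band 2, −0.15 in band 3 and −0.29 in band 4, where the medians of all genes were −0.04, −0.02, −0.002 and −0.11. Negative values were found for 7 of 15 members in band 1, 10 of 21 in band 2, 28 of 38 in band 3 and 43 of 45 in band 4. The share of all genes with a negative value was 64.9% in band 1, 54.5% in band 2, 50.3% in band 3 and 69.9% in band 4. The precision was alike across bands: the median standard error (SE) of a member's log2 fold change was 0.08 in band 1, 0.10 in band 2, 0.08 in band 3 and 0.08 in band 4. Across the 119 members, mean signal and log2 fold change correlated at Pearson r = −0.425 and Spearman rho = −0.503, beside −0.0337 and −0.102 across all 18194 genes. These are descriptions across genes that share the same 7 arrays and are not independent replicates. With the level taken from wild type arrays alone, r over the members was −0.466, and from knockout arrays alone −0.366. An error in either mean also enters the fold change.

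**Figure D2:**
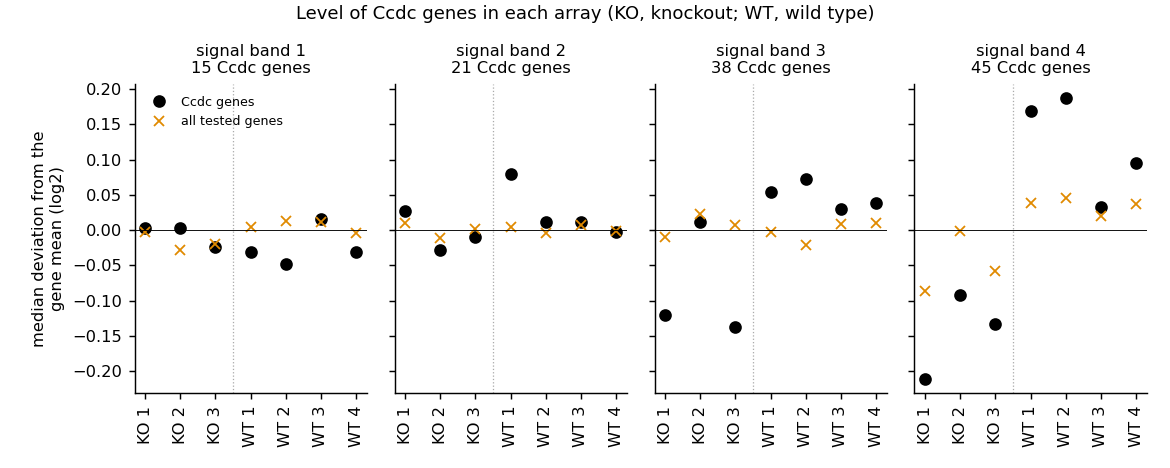
Median over genes of the deviation of each array's log2 signal from the gene's mean over 7 arrays, in the 4 signal bands, for Ccdc genes (black points) and all tested genes (orange crosses), with knockout arrays left of wild type arrays. In band 4 the Ccdc medians of the 3 knockout arrays, −0.21 to −0.09, all lie below those of the 4 wild type arrays, 0.03 to 0.19.

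Array by array, the median deviation of the 45 members of band 4 from their own means was −0.21, −0.09 and −0.13 in knockout 1 to 3, against 0.17, 0.19, 0.03 and 0.10 in wild type 1 to 4. Knockout 1 stood lowest and wild type 2 highest, and the genotypes did not overlap. For all genes of band 4 the same values were −0.09, −0.001 and −0.06 in knockout and 0.04, 0.05, 0.02 and 0.04 in wild type testis. In band 3 knockout 2 (0.01) stayed apart from knockout 1 (−0.12) and knockout 3 (−0.14), while the wild type arrays lay between 0.03 and 0.07.

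The axoneme and spermatid lists, chosen by known function, had the lowest medians of the role lists. Counts for the role lists stand beside 7.05% of all tested genes that fell and 9.07% that rose. In band 4 these shares of all genes were 14.2% and 10.1%. Of 13 measured axoneme members, 7 fell, 0 rose and 6 did not pass, and all 13 had a negative value, with a median log2 fold change of −0.31. Of these, 11 lie in band 4. Ccdc40, which with Ccdc39 forms the ruler that sets the axonemal repeat, had log2 signals of 8.64, 8.74 and 8.55 in knockout, against 9.13, 9.07, 9.10 and 8.96 in wild type testis. This is a log2 fold change of −0.42 (limma SE 0.07; adjusted p = 0.0133), and no knockout array reached the lowest wild type array. Its partner Ccdc39 had 10.22, 10.13 and 10.12 in knockout, against 10.39, 10.16, 10.28 and 10.40 in wild type testis, so that the groups overlapped, and its log2 fold change was −0.15 (SE 0.08, adjusted p = 0.199). A dimmer probe set of Ccdc39 averaged 7.19 in knockout and 7.70 in wild type testis, a difference of −0.50, and Ccdc39 passed when genes were represented by their most variable probe set (adjusted p = 0.0317), while another near the bottom of the scale (2.40 and 2.24) differed by 0.16.

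Of 4 measured genes for docking or attachment of the dynein arms, the motors that drive the beat, 2 fell and 2 did not pass. Ccdc151, a docking subunit, had 8.12, 8.32 and 8.07 in knockout, against 8.64, 8.55, 8.58 and 8.52 in wild type testis (log2 fold change −0.40, SE 0.08, limma adjusted p = 0.0155). Ccdc63, a related protein of the sperm tail in mice, had 9.36, 9.45 and 9.34 in knockout, against 9.78, 9.83, 9.65 and 9.73 in wild type testis (log2 fold change −0.36, SE 0.07, adjusted p = 0.0147). In both genes the knockout arrays lay at least 0.20 below the lowest wild type array, and those of Ccdc151 were more spread than its wild type arrays (SD 0.13 in knockout and 0.05 in wild type). Ccdc114, the docking partner of Ccdc151, was dimmer, with a log2 fold change of −0.32 that did not pass (adjusted p = 0.0702), and Ccdc103, which aids dynein arm attachment, had −0.31 (adjusted p = 0.133).

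Among proteins inside or along the microtubule doublets, Ccdc173, a microtubule inner protein, had 9.31, 9.66 and 9.27 in knockout, against 9.81, 9.92, 9.76 and 9.75 in wild type testis. The fall was −0.40 on the log2 scale (SE 0.10, adjusted p = 0.0346), knockout 2 lay well above the other knockout arrays, and 3 further probe sets differed by −0.16, −0.07 and −0.19. Ccdc181, a protein of the sperm flagellum, had 10.33, 10.44 and 10.39 in knockout, against 10.71, 10.67, 10.59 and 10.56 in wild type testis (log2 fold change −0.25, SE 0.06, adjusted p = 0.0366), and it is among the brightest 5 members. Ccdc105, also a microtubule inner protein, had −0.35 and did not pass (adjusted p = 0.0565). Ccdc96 (−0.27) and Ccdc113 (−0.26), axonemal proteins that bind each other, also fell (adjusted p = 0.0398 and 0.0314). Under the title-number block Ccdc40, Ccdc151, Ccdc63 and Ccdc173 kept an adjusted p under 0.05, and Ccdc181, Ccdc96 and Ccdc113 did not.

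**Figure D3:**
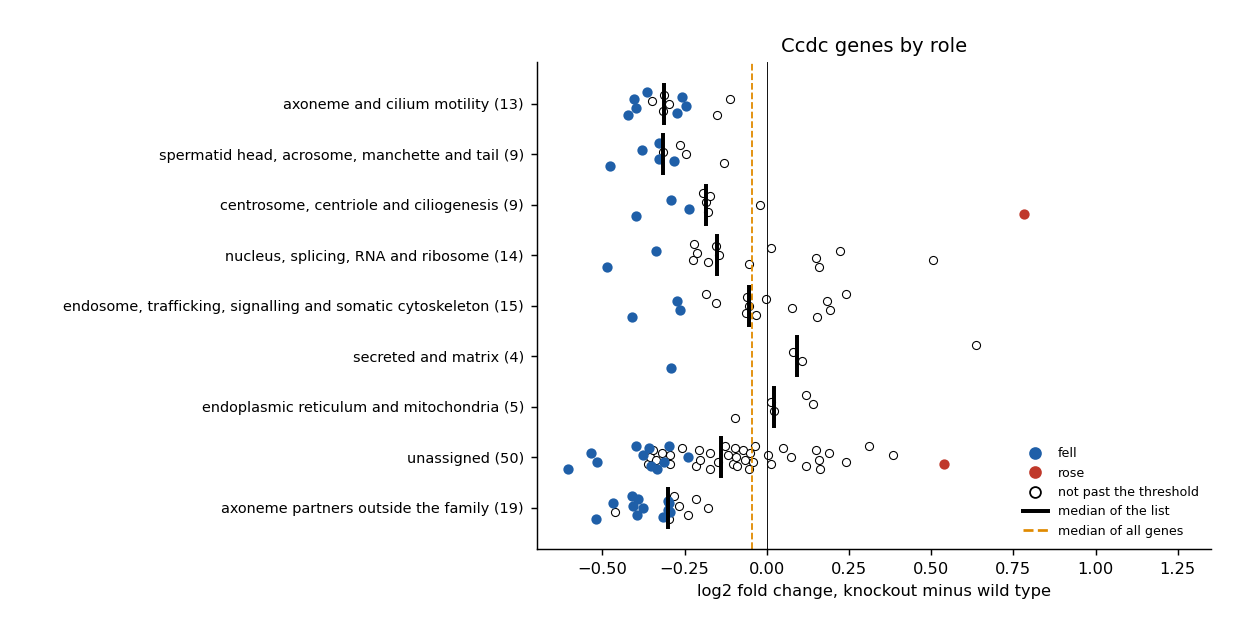
Log2 fold change (knockout minus wild type) of each Ccdc gene by role, with the number of genes in brackets. The bottom row shows axoneme partners outside the family. Vertical bars are medians and the dashed line is the median of all tested genes, −0.045. All 13 axoneme and all 9 spermatid members lie left of 0, while the secreted, reticulum and mitochondrial members have medians above 0.

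RFX factors, the main regulators of ciliary genes, bind X-box elements near start sites, and the promoters of members were searched for these letters. RefSeq promoter windows (GRCm38.p6, 250 bases before to 50 after a start) were matched by symbol for 97 of the 119 members. The paired element GTTNCC followed after 0 to 3 bases by GGNAAC, on either strand, was found in 4 of these 97 members (4.12%) and in 1.07% of tested genes with a window. It was found in 4 of the 28 members that fell and have a window, in 1.62% of tested genes of band 4, and in 0.804% of all windows of the table. The 4 promoters are shown because they hold the whole element, which is in capitals and lies within 34 bases of the start in each.
Ccdc151: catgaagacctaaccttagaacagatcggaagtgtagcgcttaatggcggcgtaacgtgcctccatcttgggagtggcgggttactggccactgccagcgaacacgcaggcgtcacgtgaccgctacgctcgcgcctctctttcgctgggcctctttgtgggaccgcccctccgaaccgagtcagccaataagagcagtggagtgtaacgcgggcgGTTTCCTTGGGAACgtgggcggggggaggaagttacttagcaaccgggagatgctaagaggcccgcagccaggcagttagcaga
Ccdc96: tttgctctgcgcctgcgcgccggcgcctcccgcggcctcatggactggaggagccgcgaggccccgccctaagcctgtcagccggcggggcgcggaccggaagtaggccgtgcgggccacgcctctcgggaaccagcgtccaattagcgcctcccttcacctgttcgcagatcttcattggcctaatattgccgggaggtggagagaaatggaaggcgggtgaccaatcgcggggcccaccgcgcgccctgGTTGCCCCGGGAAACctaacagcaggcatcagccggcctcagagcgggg
Ccdc175: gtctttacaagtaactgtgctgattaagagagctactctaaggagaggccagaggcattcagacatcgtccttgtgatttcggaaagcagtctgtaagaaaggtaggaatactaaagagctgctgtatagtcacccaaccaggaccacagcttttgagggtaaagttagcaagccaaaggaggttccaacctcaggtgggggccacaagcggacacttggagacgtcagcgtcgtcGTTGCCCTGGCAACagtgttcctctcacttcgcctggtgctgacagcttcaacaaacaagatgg
Ccdc180: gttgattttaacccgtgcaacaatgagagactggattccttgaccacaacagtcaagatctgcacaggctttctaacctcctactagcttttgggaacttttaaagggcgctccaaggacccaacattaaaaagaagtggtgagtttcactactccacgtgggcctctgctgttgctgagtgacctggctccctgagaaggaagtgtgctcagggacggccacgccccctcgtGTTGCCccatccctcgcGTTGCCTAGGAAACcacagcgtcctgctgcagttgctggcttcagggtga
These windows are chr9:22002585-22002884 (minus strand), chr5:36484338-36484637 (plus strand), chr12:72184980-72185279 (minus strand) and chr4:45890053-45890352 (plus strand). Counted from the start site as 1, the element spans −34 to −21 in Ccdc151, 2 to 16 in Ccdc96, −14 to −1 in Ccdc175 and 1 to 14 in Ccdc180, where a further GTTGCC at −17 to −12 is in capitals too. Ccdc175 and Ccdc180, which have no role list here, fell by 0.31 and 0.30 on the log2 scale (adjusted p = 0.0424 and 0.0290), and with the title-number block the call of Ccdc175 was lost (adjusted p = 0.0767).

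The single element GTTGCC, which overlaps the paired one, was found in 25 of 97 members (25.8%) and in 14.7% of tested genes. It was in 6 of 12 axoneme members with a window, in 8 of 28 members that fell (28.6%), in 13 of 40 members of band 4 (32.5%), beside 17.5% of all genes of that band, and in 5 of 26 members of bands 1 and 2 (19.2%). The sequence TGACGT, the core of the element bound by CREM, a spermatid transcription factor, was in 14.4% of members, 17.9% of those that fell and 11.01% of tested genes. GCAGTT, a site of MYB factors, of which A-MYB acts in spermatocytes, was in 19.6% of members, 25% of those that fell and 15.3% of tested genes. In band 4, TGACGT was in 17.5% of members and 14.6% of tested genes, and GCAGTT in 20% and 16.9%. A match of letters is a description of these windows, not a measured binding site.

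Of 9 measured members of the spermatid list, which holds genes of the acrosome, manchette and tail, 5 fell, 0 rose and 4 did not pass, and all 9 had a negative value (median −0.32). Ccdc33, a germ cell protein found at peroxisomes, had 6.97, 7.23 and 7.25 in knockout, against 7.64, 7.88, 7.44 and 7.55 in wild type testis (log2 fold change −0.48, SE 0.12, limma adjusted p = 0.0294). Ccdc87, needed for a normal acrosome reaction in mice, had 6.93, 7.11 and 6.98 in knockout, against 7.42, 7.49, 7.31 and 7.32 in wild type testis (−0.38, SE 0.07, adjusted p = 0.0170). Ccdc189, a sperm tail protein, had 9.25, 9.37 and 9.20 in knockout, against 9.63, 9.72, 9.47 and 9.59 in wild type testis (−0.33, SE 0.08, adjusted p = 0.0270). In these 3 genes all knockout arrays lay below all wild type arrays, and the call of Ccdc33 and Ccdc189 was lost with the title-number block (adjusted p = 0.0581 and 0.0560). Ccdc62, which male mice need for fertility, fell by 0.28 (adjusted p = 0.0376; 0.0548 with the title-number block), and Ccdc159 by 0.33 (adjusted p = 0.0326).

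The brightest spermatid members did not pass the test. Ccdc136, needed for acrosome formation in mice and the brightest member of all, had 11.55, 11.55 and 11.51 in knockout, against 11.72, 11.67, 11.66 and 11.62 in wild type testis. The arrays did not overlap, but the log2 fold change of −0.13 (SE 0.06) did not pass (adjusted p = 0.140). Ccdc38, a flagellar protein, had 10.67, 10.71 and 10.42 in knockout, against 10.94, 10.76, 10.88 and 10.80 in wild type testis (−0.25, SE 0.09, adjusted p = 0.0871). Of the 5 brightest members, 2 overlapped between genotypes. Ccdc91, a partner of the GGA adaptors of the trans-Golgi, had 10.64, 10.80 and 10.83 in knockout, against 10.96, 11.05, 10.78 and 10.98 in wild type testis (−0.19, SE 0.08, adjusted p = 0.155). Ccdc54 had 10.24, 10.56 and 10.32 in knockout, against 10.46, 10.68, 10.33 and 10.71 in wild type testis (−0.17, SE 0.12, adjusted p = 0.328), and within the title group of knockout 2 its difference was 0.055.

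The largest falls lay partly outside both lists. Ccdc106, whose human protein binds p53, had 5.29, 5.68 and 5.49 in knockout, against 6.11, 6.04, 6.10 and 6.11 in wild type testis. Its log2 fold change of −0.60 (SE 0.09, limma adjusted p = 0.0116), a percent change of −34.2%, was the largest fall among members, and its mean signal stood below the median tested gene. Ccdc73 had 5.34, 5.99 and 5.44 in knockout, against 6.03, 6.29, 6.01 and 6.17 in wild type testis (−0.54, SE 0.15, adjusted p = 0.0473), with knockout 2 within 0.02 of the lowest wild type array and an adjusted p of 0.0603 with the title-number block. Ccdc106 and Ccdc73 are the 2 members of bands 1 and 2 that fell. Ccdc83, known in humans as a cancer and testis antigen, was bright and had 8.51, 8.72 and 8.63 in knockout, against 9.11, 9.28, 9.02 and 9.13 in wild type testis (−0.52, SE 0.08, adjusted p = 0.0121). Ccdc187 had 8.63, 8.47 and 8.50 in knockout, against 9.04, 8.95, 8.79 and 8.94 in wild type testis (−0.40, SE 0.08, adjusted p = 0.0168). Of the 50 members with no role list, 11 fell, 1 rose and 38 did not pass (median −0.14).

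**Figure D4:**
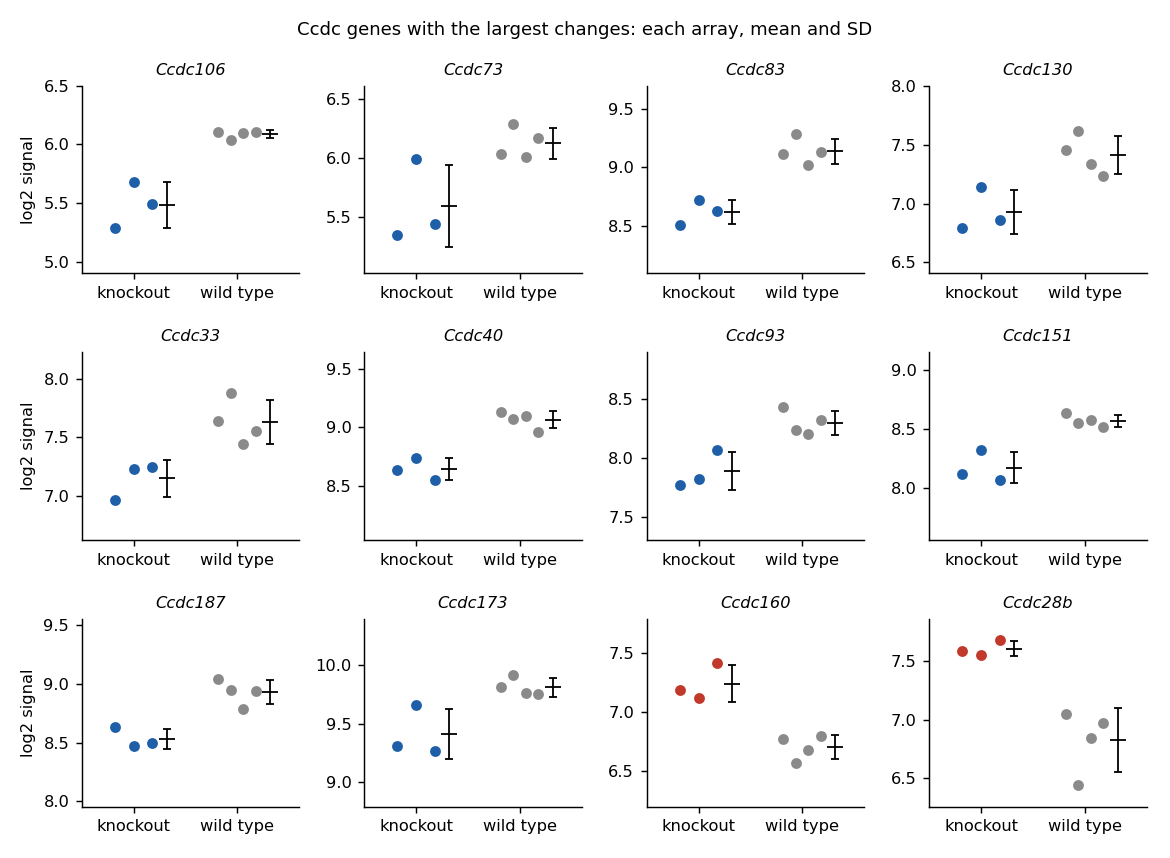
Log2 signal of each array for the 10 Ccdc genes with the largest falls and the 2 that rose, knockout left of wild type, with the mean and standard deviation (SD, n = 3 knockout and 4 wild type arrays) beside the points. Every panel spans the same height of the log2 scale, and in no panel do the genotypes overlap.

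Both rises were larger than most falls. Ccdc28b, a modifier of Bardet-Biedl syndrome that affects cilium length, had 7.59, 7.55 and 7.68 in knockout, against 7.05, 6.44, 6.84 and 6.97 in wild type testis, which is 0.78 on the log2 scale (SE 0.14, limma adjusted p = 0.0137). Wild type 2 was the lowest array, and even the highest wild type array lay 0.50 below the lowest knockout array. A further Ccdc28b probe set averaged 6.93 in knockout and 6.22 in wild type testis, and the 2 dim ones differed by 0.20 and 0.07. Ccdc160, an X-linked gene, had 7.19, 7.12 and 7.42 in knockout, against 6.77, 6.57, 6.68 and 6.80 in wild type testis, which is 0.54 on that scale (SE 0.09, adjusted p = 0.0133). Ccdc28b lies on chromosome 4, as Phf13 does, with 6 other members: Ccdc163, Ccdc180 and Ccdc30 fell, and Ccdc171, Ccdc17 and Ccdc107 did not pass, with log2 fold changes of the 7 from −0.36 to 0.78. The other X-linked members, Ccdc22 (−0.055) and Ccdc120 (0.19), did not pass.

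The 9 measured centrosome and centriole members were mixed, with 3 that fell, 1 that rose (Ccdc28b) and 5 that did not pass, and a median of −0.18. Ccdc57, a centriolar protein, had 8.38, 8.19 and 8.58 in knockout, against 8.83, 8.94, 8.61 and 8.74 in wild type testis (−0.40, SE 0.11, adjusted p = 0.0436). Ccdc13, a protein of centriolar satellites, had 8.64, 8.76 and 8.73 in knockout, against 9.03, 8.95, 8.91 and 8.90 in wild type testis (−0.24, SE 0.06, adjusted p = 0.0383). The knockout and wild type arrays of both did not overlap, with a gap of 0.03 for Ccdc57 and 0.14 for Ccdc13, and neither passed with the title-number block. Ccdc77, a centrosomal protein, fell by 0.29 (adjusted p = 0.0460; 0.0794 with the title-number block).

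Of 14 members of the nucleus, splicing and ribosome list, 2 fell, 0 rose and 12 did not pass (median −0.15). Ccdc130, a splicing factor relative, had 6.79, 7.14 and 6.86 in knockout, against 7.46, 7.62, 7.34 and 7.24 in wild type testis (−0.49, SE 0.11, limma adjusted p = 0.0270). Ccdc124, a ribosome-binding protein, had 7.85, 8.03 and 8.03 in knockout, against 8.31, 8.38, 8.31 and 8.23 in wild type testis (−0.34, SE 0.07, adjusted p = 0.0199). In the other direction, Ccdc59, a nucleolar protein, had 6.36, 5.97 and 6.20 in knockout, against 5.72, 5.32, 5.69 and 5.95 in wild type testis. Its groups were apart by 0.02, and its log2 fold change of 0.51 (SE 0.15) narrowly missed the threshold (adjusted p = 0.0517), which it passed in 6 of the alternative settings.

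Among 15 members for endosomes, trafficking, signalling and the somatic cytoskeleton, 3 fell, 0 rose and 12 did not pass (median −0.055). Ccdc93, a subunit of the complex that recycles endosomal cargo, had 7.77, 7.82 and 8.07 in knockout, against 8.43, 8.24, 8.20 and 8.32 in wild type testis (−0.41, SE 0.09, adjusted p = 0.0237). It was the 1 member that still passed without knockout 3, but its 3 dimmer probe sets differed by 0.13, −0.09 and −0.00083. Ccdc88c, known as Daple, a regulator of Wnt signalling, had 7.08, 7.09 and 7.0 in knockout, against 7.33, 7.44, 7.30 and 7.25 in wild type testis (−0.27, SE 0.07, adjusted p = 0.0294). Its paralogue Ccdc88b had 6.64, 6.81 and 6.72 in knockout, against 6.90, 7.07, 7.03 and 6.95 in wild type testis (−0.26, SE 0.07, adjusted p = 0.0385). Of these 3 genes no knockout array reached a wild type array, but 3 dimmer probe sets of Ccdc88c differed by 0.003, 0.01 and 0.04. The third paralogue, Ccdc88a or girdin, an actin-binding protein, had −0.16 and did not pass (adjusted p = 0.307).

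Secreted members and those of the reticulum and mitochondria had medians above 0. Of 4 secreted members, 1 fell and 3 did not pass (median 0.09), and of 5 for the reticulum and mitochondria 0 passed in limma (median 0.02; unadjusted p of at least 0.14). Ccdc134, a protein of the secretory pathway, had 7.17, 7.38 and 7.24 in knockout, against 7.48, 7.68, 7.57 and 7.49 in wild type testis (−0.29, SE 0.08, adjusted p = 0.0392). Ccdc80, a secreted matrix protein, had 6.20, 6.57 and 7.18 in knockout, against 6.02, 5.47, 6.68 and 5.88 in wild type testis. The arrays overlapped widely, with wild type 3 above 2 knockout arrays, the log2 fold change was 0.64 (SE 0.30, adjusted p = 0.172), and a second probe set differed by −0.04. Ccdc3, a secreted protein, had 6.43, 6.35 and 6.28 in knockout, against 6.32, 6.32, 6.32 and 6.14 in wild type testis (0.08, SE 0.07, adjusted p = 0.471).

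Ccdc47, part of a translocon complex of the endoplasmic reticulum, had 9.29, 9.37 and 9.35 in knockout, against 9.29, 9.10, 9.15 and 9.33 in wild type testis (0.12, SE 0.07, limma adjusted p = 0.289). Ccdc90b, a mitochondrial membrane protein, had 8.69, 8.85 and 8.91 in knockout, against 8.54, 8.54, 8.75 and 8.87 in wild type testis (0.14, SE 0.10, adjusted p = 0.351). These are the 2 members of band 4 whose log2 fold change was not negative. Ccdc127 had 7.42, 7.58 and 7.53 in knockout, against 7.58, 7.72, 7.55 and 7.58 in wild type testis (−0.10, SE 0.07, adjusted p = 0.355).

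Role and level overlapped: 16 of the 22 axoneme and spermatid members lie in band 4, and 29 other members do. The median in band 4 was −0.31 for the 16, of which 10 fell, and −0.26 for the 29, of which 11 fell. In band 3 it was −0.35 for 4 axoneme and spermatid members (2 fell) and −0.11 for 34 others (7 fell and 2 rose). Of all genes, 14.2% fell and 10.1% rose in band 4, and 9.50% fell and 17.0% rose in band 3. In bands 1 and 2, Ccdc146 (−0.26) and Ccdc153 (−0.11) of the 2 lists did not pass, and the median of the 34 others was 0.01. No test of role or level was made, since members are not replicates.

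Genes outside the family that work with axonemal Ccdc proteins were lower as well. Of 19 measured from a list of 25, 12 fell, 0 rose and 7 did not pass, and all 19 had a negative value (median −0.30). Of the 19, 15 lie in band 4, where 14.2% of all genes fell and 69.9% had a negative value. The dynein intermediate chain genes Dnaic2 and Dnaic1 had log2 fold changes of −0.52 and −0.39 (adjusted p = 0.0149 and 0.0134). Of the nexin-dynein regulatory complex, which links neighbouring doublets, Iqcd (−0.47), Drc3 (−0.39), Drc1 (−0.30), Tcte1 (−0.30) and Gas8 (−0.30) fell, with adjusted p from 0.0175 to 0.0382, while Iqcg (−0.28, adjusted p = 0.0553) and Fbxl13 (−0.46, adjusted p = 0.449) did not pass. Ccdc65, the family's own subunit of that complex, had −0.30 and just missed the threshold (adjusted p = 0.0563). Linear signals summed over the 13 axoneme Ccdc genes were 7935 to 8826 in knockout and 9758 to 10406 in wild type arrays.

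Further members by count complete the family. The 12 members that fell and were not given array by array are Ccdc74a, Ccdc163, Ccdc150, Ccdc185, Ccdc159, Ccdc175, Ccdc180, Ccdc77, Ccdc62, Ccdc96, Ccdc113 and Ccdc30. Their log2 fold changes ran from −0.38 to −0.24 and their limma adjusted p from 0.0215 to 0.0460. Like Ccdc175, Ccdc77, Ccdc62, Ccdc96 and Ccdc113, the members Ccdc74a, Ccdc163, Ccdc150 and Ccdc30 lost their call with the title-number block. The adjusted p was then 0.0535 for Ccdc74a, 0.0548 for Ccdc163, 0.0536 for Ccdc150 and 0.0665 for Ccdc30. Another 12 members had every knockout array below every wild type array but did not pass, with log2 fold changes from −0.35 to −0.13, among them Ccdc105 and Ccdc81. Ccdc6, Ccdc186, Ccdc32 and Ccdc59 had every knockout array above the wild type arrays without passing. Over the 85 members that did not pass, log2 fold changes ran from −0.36 to 0.64. Ccdc7a, whose sequence is close to that of Ccdc7b, had −0.34 (SE 0.25) and cannot be assigned to that copy with certainty.

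Other probe sets of the same genes were compared where they exist. Of the members, 66 have 1 probe set and 53 have several, up to 7. Of 97 probe sets not used to represent a gene, 75 differed in the same direction as the one used. For members that passed, 29 of 33 did so, namely 15 of 15 brighter than the median tested gene and 14 of 18 dimmer ones. Among members that did not pass, a dimmer probe set of Ccdc71l was higher in knockout by 0.65 and one of Ccdc69 by 0.54. In both the genotypes did not overlap, and the probe sets used for these genes differed by −0.07 and −0.003. No detection calls were used, so that a flat dim probe set does not show an unchanged gene.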

How the data were processed

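Total RNA from whole testis was hybridised to Affymetrix expression arrays, 1 per sample, and groups were taken from the genotype labels. The authors deposited 1 table of log2 signals for 45101 probe sets, made with Affymetrix Expression Console 1.4.1, per the submitters' processing notes; that the scale is log2 was read from the values, and the sources used here do not state how they were normalized. Of the probe sets, 34958 carry 1 gene symbol, 932 several and 9211 none, and the first kind was kept, with the probe set of highest mean over the 7 arrays for each of 18194 genes.

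Knockout minus wild type was fitted on these values with limma 3.58.1 (lmFit and eBayes) in R 4.3.3 over all genes, with no covariate, a two-sided test and Benjamini-Hochberg adjustment at 0.05. Genes with an adjusted p under 0.05 are said to have risen where the log2 fold change was positive and fallen where it was negative. On simulated data with the spread of this comparison and 18194 genes, 74% of 100 genes set to a log2 fold change of 0.5 and 99% of 100 set to 1 were recovered, with 16 false calls. Smaller changes were not simulated, and the members that fell had a median log2 fold change of −0.35. The simulation drew independent noise and changed far fewer genes than the 2934 called here, so recovery in these data may differ.

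The members and gene lists were chosen with earlier results of these data known. Array values are given for members among the 10 largest falls or rises that passed, the 3 of smallest p in each role list, the 5 of highest signal, and Ccdc39 and Ccdc40. Any other member named with a value was chosen after its values were seen. Replicate numbers did not pair the arrays: deviations from group means correlated at 0.182, 0.103 and −0.143 for numbers 1 to 3. They correlated at 0.103 to 0.319 within the groups formed by the title numbers and at 0.0227 or below between them. Arrays of the same title group were thus more alike, which was not tested. The main fit does not model these groups, and counts with them as a block stand beside the main ones. Alternatives were another normalization, filter, probe set rule, test, block or set of arrays.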

Additional observations from a re-analysis of the deposited data

Results flagged for a closer look

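In 2 of the 38 groups of 4 wild type arrays examined for the named members and medians, the lowest array stood apart from the rest, and chance alone marks about 1 in 20 such groups. For Ccdc106, wild type 2 had 6.04 where the other wild type arrays had 6.10 to 6.11, a gap that is 0.857 of the group's range and small beside the fall in knockout. For Ccdc3, wild type 4 had 6.14 where the other 3 arrays each had 6.32, a gap of 1.0 of the range.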

How the results depend on the processing

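The members' median stayed below 0 under every alternative, and the number of calls was not kept. The relation to signal level was recomputed under centring, quantile normalization, both other probe set rules, left-out arrays and the level from 1 genotype, where the median of band 4 stayed between −0.34 and −0.245; it was not run for the blocks, filters, weights or other tests. The count of members called was 21 with title-number groups as a block and 0 with a plain equal-variance test. In that test 50 members had an unadjusted p under 0.05, beside 5236 of all 18194 genes. The count of members called was 0 without both knockout 3 and wild type 4, and 1 to 34 with 1 array left out. Members that fell numbered 19 with the replicate block, 18 with the title-number block, 0 with the plain test, 0 without both arrays and 1 to 32 with 1 array left out. Of all 18194 genes, 3.63% fell with the replicate block and 5.03% with the title-number block, 17 were called by the plain test and 4 without both arrays, so these zeros are not particular to the family. Members that rose numbered 5 with the replicate block and 4 with the most variable probe set of each gene. They numbered 0 with the plain test, 0 without both arrays and 0 to 3 with 1 array left out. Among all 18194 genes, 1634 rose with the replicate block, 1775 with the most variable probe set and 96 to 1524 with 1 array left out. The plain test and the fit without both arrays each had 1 gene that rose. In the replicate block wild type 4 is alone and adds nothing.

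The median log2 fold change over members was −0.22 after centring each array on its median, −0.24 without the dimmest 50% of genes, −0.13 with the mean of all probe sets, −0.23 in knockout 1 with wild type 1, −0.115 in knockout 2 with wild type 2 and 3, and −0.17 to −0.15 with 1 array left out. For bands 1 and 2 together it was −0.0388 after centring, −0.0333 with the most variable probe set, and −0.025 to 0.0133 with 1 array left out. Pearson r of signal and shift was −0.365 after quantile normalization, −0.465 with the mean of all probe sets, −0.396 without both arrays, −0.466 by wild type level, −0.366 by knockout level and −0.445 to −0.390 with 1 array left out. Spearman rho was −0.393, −0.557, −0.543 and −0.445 under quantile normalization, mean of probe sets, wild type level and knockout level, −0.546 with the most variable probe set, and −0.517 to −0.475 with 1 array left out. Centring moved the median of all genes to −0.0925 and gave 1635 genes that rose and 2042 that fell, where the main values were 1651 and 1283, and 3 and 40 members. Within single title-number groups, Ccdc54 differed by 0.055 (main −0.17) and Ccdc47 by 0 (main 0.12). The cause of these changes was not tested. Without detection calls, dim probe sets limit what bands 1 and 2 can show.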

Other observations

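Probe sets that carry a Ccdc symbol together with a second gene were left out of the family. A probe set of Ccdc24 and B4galt2 had log2 signals of 8.18, 8.12 and 8.01 in knockout, against 8.64, 8.74, 8.61 and 8.57 in wild type testis, a difference of −0.54 with no overlap. The pair of probe sets for Ccdc7b and Zfp821 averaged 8.80 and 7.05 in knockout, against 9.06 and 7.29 in wild type testis. That of Ccdc142 and Mrpl53 averaged 8.80 in knockout and 8.93 in wild type testis, and that of Ccdc22 and Ppp1r3f averaged 5.10 in knockout and 4.88 in wild type testis. Which of the paired genes gave the signal cannot be told apart, and these differences were not tested.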
